A study of Arabidopsis thaliana with 12 samples.

Results

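Z-ISO, AT3G23940 and AT3G52960 encode enzymes that work in plastids, and the array of this study measured each of them with 1 feature of its own. Z-ISO is the zeta-carotene isomerase of carotenoid synthesis, AT3G23940 a dihydroxyacid dehydratase, which makes branched-chain amino acids, and AT3G52960 a peroxiredoxin. The 3 genes were taken from 692 features whose annotation gives exactly 1 gene, out of 3439 features in all. They were selected on their difference between cytokinin and water in a fit that took the replicate number for a block, in which each was lower with cytokinin at an adjusted p under 0.05 (limma, Benjamini-Hochberg over all features tested). Their differences between the treatments are therefore given as a description. The adjusted p values printed for them come from fits on the same arrays and are no independent test.

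Total RNA of wild-type Arabidopsis thaliana cell culture, ecotype Columbia 0, was hybridised to 12 arrays, 6 of culture treated with water and 6 of culture treated with cytokinin for 2 h. The control is described as given water in one label and as untreated in another, without a duration. Which cytokinin was used is not stated in the labels. Each group carries the replicate numbers 1 to 6, and nothing in the labels tells whether these are separate cultures, so the spread between arrays may be technical. A culture in suspension has no defining marker gene of its own. Of 11 marker genes of green plant cells, 3 had a feature to themselves, and all 3 had mean normalized intensities above the floor of 0.258 used here: the photosystem I subunit PSAN (1.54 ± 0.413 in water, SD, n = 6), the light-harvesting protein LHB1B2 (0.502 ± 0.0532) and phosphoribulokinase, PRK (0.285 ± 0.0341). With cytokinin LHB1B2 rose by 0.68 on the log2 scale (limma, adjusted p = 0.00144), PSAN by 0.27 with the replicate block only (adjusted p = 0.0275, and 0.792 without it), and PRK, at 0.13, passed in neither fit (0.881 and 0.133).

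Intensities summed to 3743 to 3875 per array. The median intensity was lower on every cytokinin array (0.674 to 0.693) than on any water array (0.724 to 0.744), and quantile normalization removed this shift. Values called normalized have passed that step, and values called deposited have not. An intensity in a culture cannot tell fewer cells that express a gene from less RNA per cell.

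Plastids make carotenoids, the branched-chain amino acids and chlorophyll, and they hold their own set of thiol enzymes against peroxides. Carotenoids protect the photosynthetic apparatus from excess light and are precursors of abscisic acid. Z-ISO acts on zeta-carotene between the phytoene and the zeta-carotene desaturase. Dihydroxyacid dehydratase is an iron-sulfur enzyme that forms the keto acids from which valine, leucine and isoleucine derive. Peroxiredoxins reduce hydrogen peroxide and organic peroxides with a reactive cysteine, which other thiol proteins then regenerate. Cytokinin is a plant hormone of cell division that also promotes greening and chloroplast development.

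Z-ISO was lower on every cytokinin array than on any water array. Its deposited intensity lay between 0.923 and 1.07 in water, with a median of 0.998, and between 0.684 and 0.826 in cytokinin, with a median of 0.811. The groups did not overlap after normalization either, with 0.897 as the lowest water value and 0.849 as the highest cytokinin value. An arrangement with all cytokinin arrays below all water arrays occurred in 0.679% of the 3091 features tested after normalization and in 1.71% on the deposited values. The mean normalized intensity was 0.97 ± 0.0549 in water and 0.803 ± 0.062 in cytokinin (SD, n = 6 each), a log2 change of -0.27 or 0.827 times the water level.

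AT3G23940 was lower with cytokinin by less, and its groups overlapped. Its deposited intensity ran from 1.53 to 1.81 in water (median 1.74) and from 1.26 to 1.59 in cytokinin (median 1.48). On the deposited values the overlap came from 1 water array, number 2, whose 1.53 lay below the cytokinin arrays numbered 3 (1.59) and 4 (1.54). After normalization, water number 2 (1.47) lay below the cytokinin arrays numbered 3 to 6 (1.504 to 1.67), and water numbers 1 (1.643) and 4 (1.665) lay below cytokinin number 3 (1.667). The mean normalized intensity was 1.69 ± 0.131 in water and 1.48 ± 0.157 in cytokinin (SD, n = 6 each), a log2 change of -0.19 or 0.878 times the water level.

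AT3G52960 differed more between replicate numbers than between treatments. Its deposited intensity ran from 2.50 to 5.04 in water (median 2.73) and from 2.35 to 4.43 in cytokinin (median 2.40). The 4 arrays numbered 5 and 6, of both treatments, lay between 4.13 and 5.04, and the other 8 arrays between 2.35 and 2.82. Among numbers 1 to 4 the water arrays (2.50 to 2.82) lay above the cytokinin arrays (2.35 to 2.40), and among numbers 5 and 6 the water arrays (5.04 and 4.82) again lay above the cytokinin arrays (4.43 and 4.13). These deposited ranges were set side by side after the values had been seen. How many features share such an arrangement was not counted. After normalization the groups overlapped among numbers 1 to 4, with water number 1 (2.399) below cytokinin number 3 (2.449). The mean normalized intensity was 3.39 ± 1.24 in water and 2.98 ± 0.910 in cytokinin (SD, n = 6 each), and the log2 change was -0.16, or 0.893 times the water level. This change depended on the scaling: it was -0.16 on the deposited values too, but -0.06 with each array scaled to the same median.

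**Figure D1:**
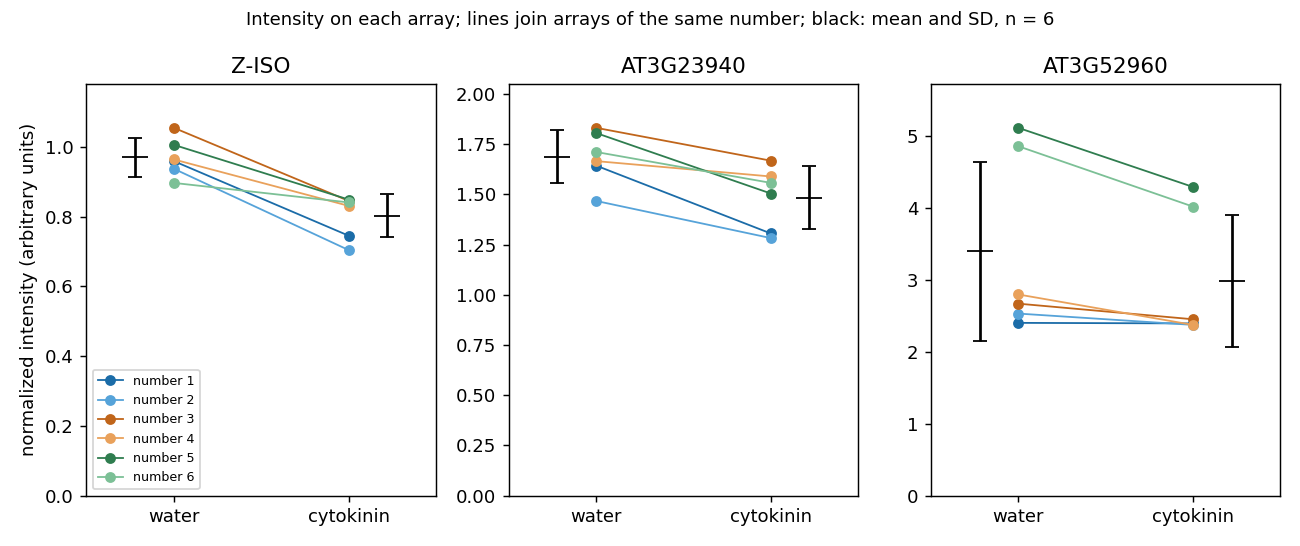
Normalized intensity (arbitrary units, axes from 0) of Z-ISO, AT3G23940 and AT3G52960 on the 6 water and 6 cytokinin arrays, with lines joining arrays of the same replicate number and black marks for the mean and SD. Every line slopes down or is level; for AT3G52960 the numbers 5 and 6 sit between 4.01 and 5.11 and the other 8 arrays between 2.37 and 2.79.

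Arrays with the same number in the 2 groups deviated together from their group means, with correlations of 0.7 to 0.84 across features, so differences within a number were also taken. All 6 same-numbered differences were below 0 for each of the 3 genes, which held for 8.06% of all features tested. This agreement follows from the choice of the genes. In log2 units after normalization, those of Z-ISO were -0.36, -0.41, -0.32, -0.21, -0.24 and -0.09 for numbers 1 to 6. Those of AT3G23940 were -0.33, -0.19, -0.14, -0.07, -0.26 and -0.14. Those of AT3G52960 were -0.0045, -0.093, -0.12, -0.24, -0.25 and -0.27.

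The numbers at which the differences were small were not the same ones in the 3 genes. Z-ISO had its difference nearest to 0 at number 6 and AT3G23940 at number 4. AT3G52960 had its difference nearest to 0 at number 1, where the water and cytokinin arrays had normalized intensities of 2.399 and 2.392, and its farthest at number 6. Averaged over numbers 1 and 2, 3 and 4, and 5 and 6, which earlier results had shown to deviate together, the differences were -0.39, -0.27 and -0.17 for Z-ISO, but -0.05, -0.18 and -0.26 for AT3G52960. AT3G23940 gave -0.26, -0.10 and -0.20. Whether these averages differ from each other was not tested, with 2 pairs behind each. On the deposited values the difference of AT3G52960 at number 1 was -0.06 and that at number 6 was -0.22.

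**Figure D2:**
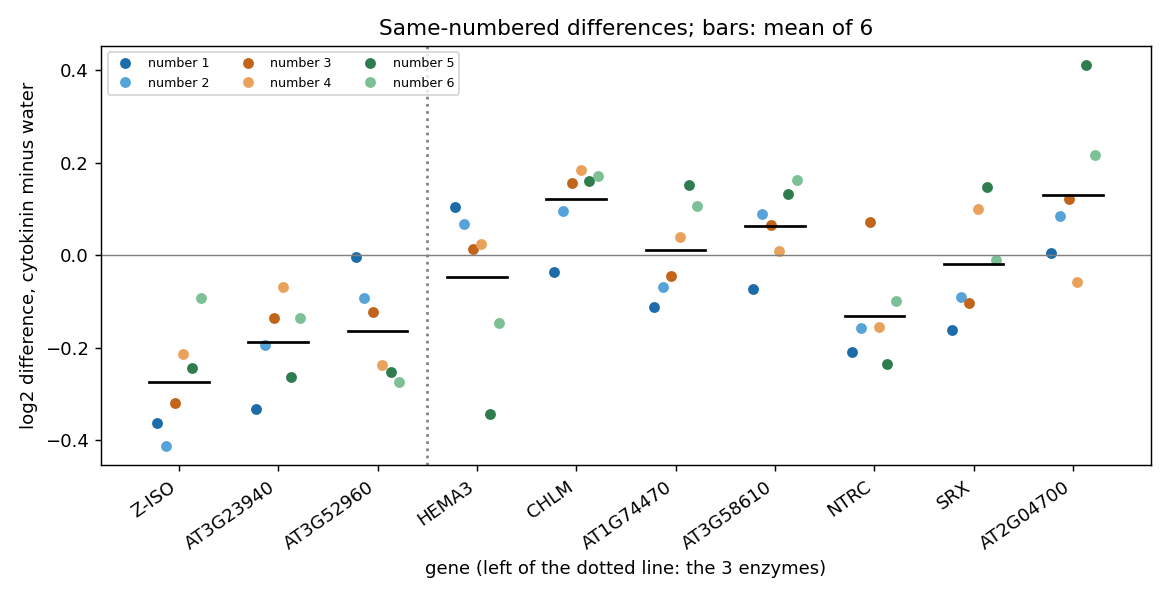
Log2 difference, cytokinin minus water, after normalization, for each of the 6 same-numbered pairs of arrays (points, coloured by number) and their mean (bars), for the 3 enzymes left of the dotted line and 7 other genes of the same pathways right of it. All points of the 3 enzymes lie below 0; each of the other 7 genes has points on both sides.

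The adjusted p that had selected the genes was 0.00652 for Z-ISO, 0.0244 for AT3G23940 and 0.0479 for AT3G52960 in limma with the replicate block. That fit called 5.21% of the features tested as lower with cytokinin. Without the block the adjusted p was 0.0515, 0.448 and 0.984 in limma, so 0 of the 3 passed, where 1.55% of features passed in either direction and 0.453% as lower. AT3G52960 lay close to the threshold of the block fit: the nearest lower features inside it were AT1G75260 (adjusted p = 0.0492, log2 change -0.16) and the unnamed feature 1472 (0.0491, -0.24), and the nearest outside was Cpn60beta4 (0.0508, -0.19).

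The 3 genes differed in their spread over the arrays of a group. The within-group SD was 0.0995 on the log2 scale for Z-ISO, 0.137 for AT3G23940 and 0.453 for AT3G52960, against a median of 0.166 over all features tested. The SD of the 6 same-numbered differences was alike for the 3 genes, at 0.115, 0.0964 and 0.107. The standard error of the change without the block was 1.32 times that with it for Z-ISO, 1.81 times for AT3G23940 and 5.16 times for AT3G52960. The log2 change of Z-ISO was 2.76 within-group SDs in size, that of AT3G23940 was 1.37 and that of AT3G52960 was 0.362.

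Taking the mean of the 2 arrays of each number, the highest number stood above the lowest by 1.16 times for Z-ISO, 1.27 times for AT3G23940 and 1.95 times for AT3G52960. A range over numbers as large as that of AT3G52960 was found in 200 features, 6.47% of those tested, while 81.9% had a range at least as large as that of Z-ISO. For AT3G52960 this range, 0.97 on the log2 scale, was 5.89 times its change with cytokinin, and for Z-ISO, at 0.22, it was 0.789 times the change. Neither the culture, the extraction nor the day of hybridisation is recorded for the numbers, so their part in this spread was not tested.

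**Figure D3:**
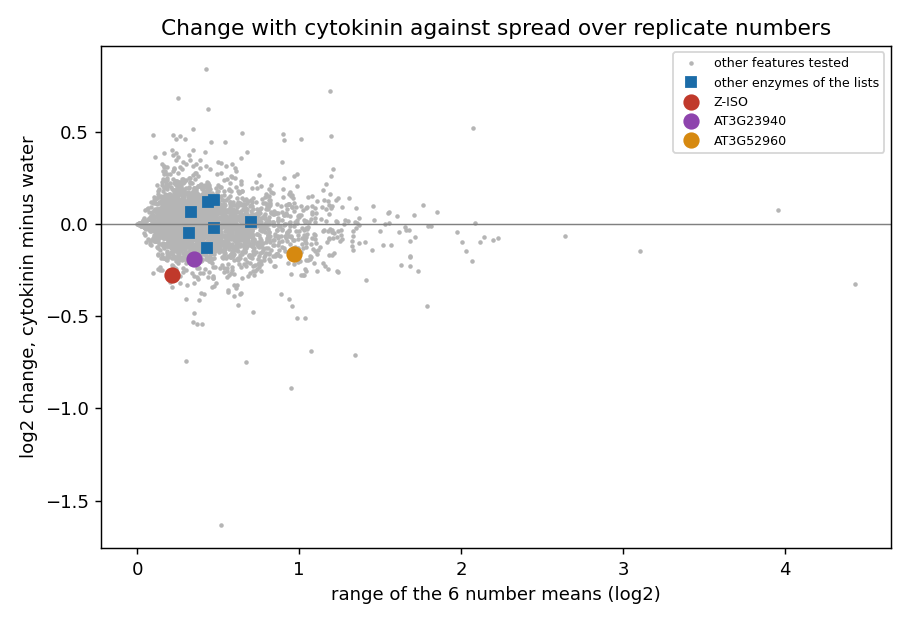
Log2 change with cytokinin against the range of the 6 number means (log2), for all features tested (grey), 7 other genes of the same pathways (blue squares) and the 3 enzymes. Z-ISO and AT3G23940 lie at ranges of 0.22 and 0.35 and AT3G52960 at 0.97, all below a change of 0.

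The deviations of the numbers set AT3G52960 apart from Z-ISO and AT3G23940 in shape as well as in size. Numbers 1 and 2 were lowest for Z-ISO (-0.06 and -0.12 from its own mean, log2) and for AT3G23940 (-0.11 and -0.20), and number 3 was highest for both (0.10 and 0.15). For AT3G52960 numbers 5 and 6 stood at 0.62 and 0.54, and the other 4 between -0.35 and -0.24. Over the 12 arrays, Z-ISO and AT3G23940 correlated at r = 0.86, and at 0.81 around the group means. AT3G52960 correlated at 0.27 with Z-ISO and at 0.40 with AT3G23940. These are descriptions over 12 arrays that share numbers and treatment. The selection of all 3 genes for a lower level with cytokinin adds to the values not taken around the group means.

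**Figure D4:**
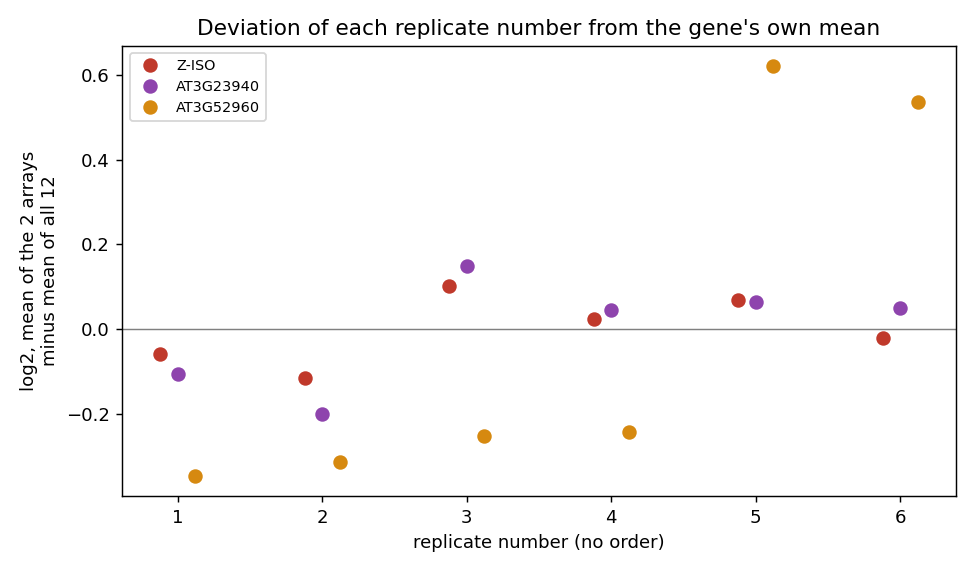
Mean log2 normalized intensity of the 2 arrays of each replicate number, as the deviation from the gene's mean over all 12 arrays, for the 3 enzymes. The numbers have no order; AT3G52960 stands at 0.62 and 0.54 for numbers 5 and 6 and below 0 for the others, while Z-ISO and AT3G23940 are lowest at number 2 and highest at number 3.

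Among 612 other genes with a feature of their own, the 3 whose log2 values were most like those of Z-ISO over the 12 arrays were AT1G67930 (Pearson r = 0.87), AT3G23940 (0.86) and the transcription factor TCP15 (0.85). Those most like AT3G23940 were AT1G67930 (0.91), AT1G74070 (0.90) and Z-ISO (0.86). These values take in the difference between the treatments that selected the enzymes. Around the group means, the values with Z-ISO were 0.65 for AT1G67930, 0.81 for AT3G23940 and 0.52 for TCP15, and those with AT3G23940 were 0.87 for AT1G67930, 0.88 for AT1G74070 and 0.81 for Z-ISO. Those most like AT3G52960 were AT5G46390 (0.99), AT1G44920 (0.98) and AT3G22150 (0.98), with ranges over the numbers of 0.76, 0.84 and 0.67 on the log2 scale. Around the group means these 3 stayed between 0.98 and 0.99. A correlation over 0.9 over the 12 arrays was reached by 35 genes with AT3G52960, 2 with AT3G23940 and 0 with Z-ISO. Over 0.8 there were 74 genes with AT3G52960, 4 with AT3G23940 and 4 with Z-ISO. The levels by number that AT3G52960 showed were thus shared by other genes of the array.

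Other genes of the same pathways were sought with lists of locus identifiers and with terms matched to gene symbols and synonyms. Of those found, 8 besides the 3 enzymes had a feature to themselves and 7 were tested. Genes under other symbols or under a locus alone could be missed. SIRB, of siroheme synthesis (log2 change -0.07), and AT5G10920, an argininosuccinate lyase (-0.02), were tested features that the lists did not find. In limma without a block 0 of the 7 passed (adjusted p from 0.869 to 0.999), and with the replicate block 0 passed either (0.0874 to 0.895). Over all features these fits called 1.55% and 11.7% in either direction, so a count of 0 among 7 genes does not set them apart. Their median log2 change was 0.01, with 4 above 0 and 3 below, beside a median of 0.003 over all features tested. On the deposited values 2 lay above 0 and 5 below, with a median of -0.03 beside -0.072 over all features. The lists found no other carotenoid gene and no gene of plastid iron-sulfur assembly as the only gene of a feature. The neighbours of Z-ISO in its pathway were therefore not analysed here.

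The pigment genes that the lists found beside Z-ISO belong to tetrapyrrole and chlorophyll synthesis. CHLM, the magnesium-protoporphyrin IX methyltransferase, had deposited intensities of 0.856 to 1.13 in water and 0.842 to 1.201 in cytokinin, with a log2 change of 0.12 after normalization and 0.04 on the deposited values. After normalization it lay above 0 in 5 of 6 same-numbered pairs and came nearest to the threshold of the 7 genes (adjusted p = 0.0874 with the block). AT1G74470, a geranylgeranyl reductase, which supplies the phytyl chain of chlorophyll and tocopherols, had a log2 change of 0.01 (-0.02 on the deposited values), with 3 pairs on each side of 0. HEMA3, of the glutamyl-tRNA reductases that open tetrapyrrole synthesis, had one of -0.05 (-0.12 on the deposited values), with 4 of 6 pairs above 0 and the lowest difference, -0.34, at number 5. The groups of all 3 genes overlapped.

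For AT3G23940 the comparison was with AT3G58610, the only other gene that the amino acid list found. AT3G58610 had deposited intensities of 0.624 to 0.842 in water and 0.646 to 0.782 in cytokinin. Its log2 change was 0.06 after normalization (adjusted p = 0.348 with the block), above 0 in 5 of 6 pairs, and -0.03 on the deposited values. Its direction thus depended on the scaling, and the median change over all features was 0.003 after normalization and -0.072 as deposited. AT3G23940 was below 0 on both scales (-0.19 and -0.25), but it had been selected for a lower level with cytokinin.

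Of the thiol redox genes, NTRC had a log2 change of -0.13, below 0 in 5 of 6 pairs. NTRC is a plastid thioredoxin reductase with a thioredoxin domain of its own that reduces other peroxiredoxins. Its deposited intensities were 1.02 to 1.58 in water and 0.913 to 1.28 in cytokinin, and the groups overlapped. In limma with the block NTRC missed the threshold (adjusted p = 0.0978). It passed once a running median along feature numbers was removed as well (adjusted p = 0.0271, log2 change -0.17), alone of the 7 tested genes. That fit called 478 of 3091 features in either direction, so 1 call among 7 genes does not set NTRC apart. SRX, the sulfiredoxin that repairs overoxidised peroxiredoxins, had a log2 change of -0.02 (adjusted p = 0.822 with the block), and AT2G04700 one of 0.13 (0.187), above 0 in 5 of 6 pairs. On the deposited values these changes were -0.12 for SRX, 0.03 for AT2G04700 and -0.20 for NTRC. CCS, the copper chaperone of superoxide dismutase, lay at or under the floor on all 12 arrays and was not tested. Whether these changes differ from that of AT3G52960 was not tested.

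The size of the 3 changes depended on single arrays to unlike degrees. Leaving out 1 array at a time, without the block, moved the log2 change of Z-ISO between -0.30 and -0.24, and that of AT3G23940 between -0.23 and -0.15. That of AT3G52960 moved between -0.28 and -0.03: it was -0.03 without water number 5, -0.05 without water number 6, -0.28 without cytokinin number 5 and -0.26 without cytokinin number 6. Such fits break a pair, and for AT3G52960 they leave the high numbers 5 and 6 unequal between the groups. With both arrays of a number left out and the block kept, the change of AT3G52960 stayed between -0.20 and -0.14, but its adjusted p stayed under 0.05 for 1 of the 6 numbers left out (number 1, adjusted p = 0.0371 in limma) and reached 0.134 without number 6. AT3G23940 stayed under it for 3 of the 6 (numbers 3, 4 and 6) and reached 0.0696 without number 5. Z-ISO stayed under it for all 6, up to 0.0251.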

How the data were processed

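The deposited table holds hybridization intensities on a linear scale for 3439 features on 12 arrays; the authors' scaling and background correction are not given in the sources used here, nor are array and scanner. Gene names are those of the platform annotation, renewed by gene identifier from a RefSeq table of TAIR10.1 that held 690 of 692 single names. Intensities were quantile-normalized, raised to a floor of 0.258, the 10th percentile of all values above 0, and put on the log2 scale; 348 features at the floor everywhere were left out and 3091 tested. Groups were compared with limma 3.58.1 in R 4.3.3 (lmFit, eBayes, two-sided, Benjamini-Hochberg, threshold 0.05). The fits were also run on simulated data, in which the replicate numbers varied independently of each other. That simulation cannot show how the fits behave where numbers deviate together. Plots used matplotlib 3.10.9.

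The genes, the pathway and marker lists, the sets of numbers and the other settings were chosen with earlier results of these data known. Named were the 3 enzymes, every tested pathway gene that the lists found, the 3 genes most like each enzyme and the features next to the threshold. Numbers were taken as pairs from the data, since all same-numbered correlations exceeded 0.1 (0.7 to 0.84) and 12 of 12 arrays correlated best with their own number in the other group. The number of arrays limits the precision.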

Additional observations from a re-analysis of the deposited data

Results flagged for a closer look

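Among 20 groups of 6 values, from the 3 enzymes and the 7 tested pathway genes, 1 array stood apart by Dixon's criterion, as chance gives for about 1 in 20 groups. It was cytokinin number 6 for HEMA3, with a normalized intensity of 1.28 against 1.11 to 1.15 on the other 5 cytokinin arrays. No array of Z-ISO, AT3G23940 or AT3G52960 was flagged; the arrays numbered 5 and 6, on which AT3G52960 was high, are 2 per group, and this criterion looks for a single distant array.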

How the results depend on the processing

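The log2 changes of Z-ISO, AT3G23940 and AT3G52960 kept their sign under all 37 other settings, which reuse the arrays that selected them. They ran from -0.35 to -0.21, from -0.25 to -0.15 and from -0.28 to -0.03. With each array scaled to the same median they were -0.25, -0.16 and -0.06. The count of changed features, 48, became 361 with the replicate block, 310 with the set of numbers as a block (41 when the arrays of a set were averaged first), 478 with the block and the running median removed, 85 after median scaling and 76 with array weights. Without numbers 1 and 2 it was 5 (160 with the block), without 3 and 4 it was 7 (264) and without 5 and 6 it was 21 (217), and fewer arrays entered these fits. Leaving out 1 array gave 32 to 39, and leaving out both arrays of a number with the block, a setting added after seeing the data, gave 198 to 260. Without numbers 1 and 2 and with the block, AT3G52960 passed (adjusted p = 0.0435) and Z-ISO and AT3G23940 did not (0.0587 and 0.123); without 3 and 4, Z-ISO and AT3G23940 passed (0.0464 and 0.0403) and AT3G52960 did not (0.144); without 5 and 6, Z-ISO alone passed (0.0104, against 0.0901 and 0.224). Averaging the arrays of a set and blocking by set, 0 of the 3 passed (0.107, 0.226 and 0.297). The median log2 change of all features was 0.003 after quantile normalization and -0.072 on the deposited values, and rises were 70.8%, 39.1% and, after median scaling, 82.4% of the calls. Without a block Z-ISO passed in limma on the deposited values (adjusted p = 0.0123) and with the floor at the 20th percentile (0.0385). It also passed with the features at the floor kept (0.0359), the running median removed (0.03) and array weights (0.0189). These fits called 46 of 3103, 52 of 2866, 63 of 3439, 52 of 3091 and 76 of 3091 features. Z-ISO missed the threshold after median scaling (0.0645), with the floor at the 5th percentile (0.0639) and with log2(value + 0.25) (0.0619). So it did with only features above the floor on all arrays (0.0642), and whenever 1 array was left out (0.0542 to 0.121). The causes were not tested.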
